A study of Mus musculus with 23 samples.

Results

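Neuregulin signalling and the enzymes that break down monoamines were examined in the developing mouse prefrontal cortex, with other genes studied as schizophrenia candidates. The 9 genes were Maoa, Maob, Rgs4, Nrg1, Erbb3, Dtnbp1, Prodh, Akt1 and Grm3, and every probe set whose platform annotation gave one of these symbols alone was taken. Probe sets were found for 6 of the 9 genes: 10 probe sets of the 22690 on the array, which covered 12394 genes by unique symbol. Maob, Nrg1 and Grm3 had no such probe set among the rows used here and were not analysed here. Of the names in the list, Erbb3 is a neuregulin receptor and Maoa a monoamine oxidase, while Rgs4, Dtnbp1, Prodh and Akt1 are neither.

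The mice were male C57BL/6 offspring of wild-type breeders, their prefrontal cortex was taken by a coronal cut behind the frontal pole, and each array held 1 animal. There were 6 animals at postnatal week 2, 4 at week 3, 4 at week 4, 5 at week 5 and 4 at week 10, in 23 arrays. No animal was treated, and all shared the same strain, sex and tissue. The titles gave 2 batches, with 2 animals of week 2 and 2 of week 5 in batch 2 and the other 19 animals in batch 1.

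Neuregulins are growth factors that bind the ErbB receptor tyrosine kinases. ErbB3 binds neuregulin, has little kinase activity of its own and passes the signal to PI3K and AKT through a partner receptor, and in the brain it is known from cells of the oligodendrocyte lineage. Monoamine oxidases are enzymes of the outer mitochondrial membrane that oxidise serotonin, noradrenaline and dopamine after release and reuptake, and aldehyde dehydrogenases and reductases deal with the aldehydes they produce. RGS proteins speed up the hydrolysis of GTP on G protein alpha subunits and so shorten signalling through receptors for monoamines, glutamate and acetylcholine.

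All values below are log2 expression levels, and a change of 1 on this scale is a doubling. Age and scan day were largely confounded on these arrays: the 4 week 3 arrays were scanned on day 6 with no other age, and the 4 week 4 arrays on day 5 with 1 array of week 5. Scan day 1 held animal 2 of week 5 (batch 1) and animal 1 of week 10, which were also the only arrays of chip lot 1. The 2 labels of week 2 animal 5 disagreed on its batch, and that of the title, batch 1, was used. The beta-actin difference between 3 prime and 5 prime control probe sets, a sign of RNA integrity, was 1.50 to 2.28 at week 4 and 0.90 to 1.78 at the other ages. The same difference for Gapdh averaged 0.19 at week 4 and 0.18 to 0.24 at the other ages, and was highest on the 2 arrays of chip lot 1 (0.48 and 0.75). Neuronal marker genes averaged 10.69 to 11.80 over the arrays. Markers of the neighbouring striatum varied most between animals, from 6.78 to 10.16, and those of choroid plexus lay between 4.63 and 6.15. Over all probe sets, 1031 were higher and 1717 lower at week 10 than at week 2, against 1388 and 1340 with each array centred on its median.

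Maoa and Rgs4 fell between week 2 and week 10, and no other measured gene of the list changed by the test. In week 10 against week 2, 3 of the 9 tested probe sets were called at an adjusted p under 0.05, and all 3 were lower: the Maoa probe set and 2 of the 3 for Rgs4. Of all 16103 tested probe sets, 17.1% were called in this comparison and 10.7% were called lower, so that the count here lies above both shares, over few probe sets of which those of Rgs4 measure 1 gene. The median fitted change of the 9 was -0.22, and over all tested probe sets it was -0.0003. The value of -0.22 is that of Akt1 probe set 1425711_a_at, which was not called. Without the arrays of scan day 1 that probe set changed by 0.08. Since the 9 hold 3 probe sets of Rgs4 and 2 of Akt1, the median does not describe the genes as a group. The groups did not overlap for 1 of the 9, a probe set of Rgs4, against 14.7% of all.

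**Figure D1:**
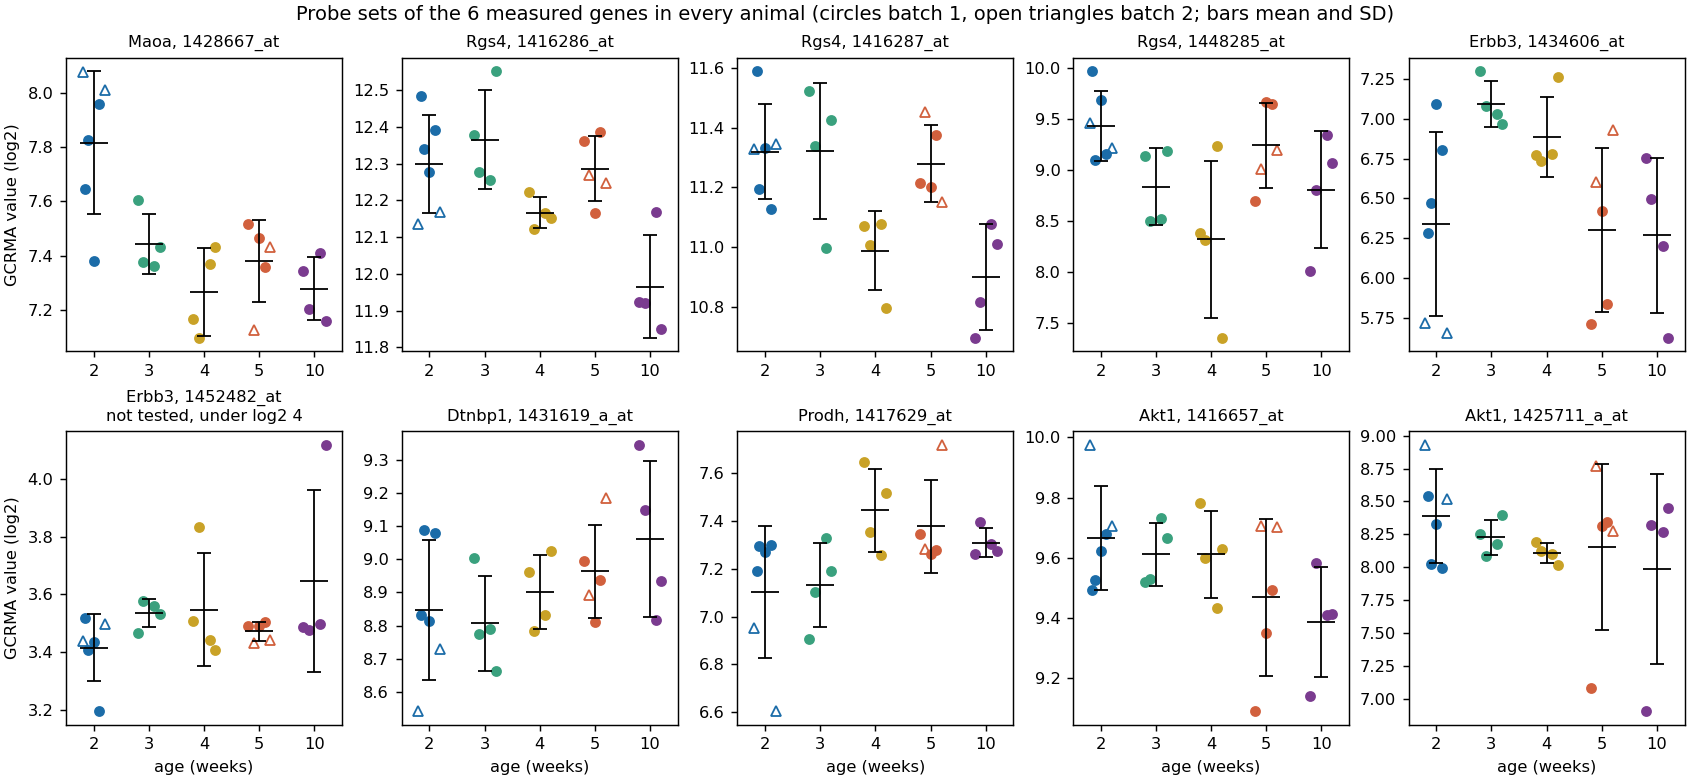
Log2 GCRMA values (vertical axes, a scale of its own in each panel) by age in weeks, 1 point per animal, for the 10 probe sets of the 6 measured genes, where filled circles are batch 1, open triangles batch 2, and bars give the mean and SD of each age. Maoa is highest at week 2, 2 of the Rgs4 probe sets are lowest at week 10, and the Erbb3 probe set 1434606_at is highest at week 3.

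Maoa encodes monoamine oxidase A, which prefers serotonin and noradrenaline. Its probe set 1428667_at lay at 7.38 in the lowest week 2 animal, 7.89 at the median and 8.08 in the highest. The week 3 animals were at 7.60, 7.43, 7.38 and 7.36, and the week 4 animals at 7.16, 7.43, 7.10 and 7.37. The week 5 animals were at 7.52, 7.43, 7.13, 7.36 and 7.46, and the week 10 animals at 7.34, 7.16, 7.20 and 7.41. Only week 2 animal 5, the animal whose batch the labels give in 2 ways, lay within the range of week 10. The other 5 animals of week 2 were above every animal of the later ages.

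Maoa averaged 7.82 ± 0.26 (SD, n = 6) in week 2 animals and 7.28 ± 0.12 (SD, n = 4) in week 10 animals. The fitted change was -0.50 (SE 0.12, adjusted p = 0.00665 by limma), a 1.42-fold lower level. The ages also differed among themselves (F-test, adjusted p = 0.0065), as did 31.6% of all tested probe sets and 3 of the 9 here. Most of the difference lay between weeks 2 and 3, with a fitted change of -0.34 (SE 0.12), which missed the threshold at an adjusted p of 0.0623. In order of their means the ages ran week 2, week 3, week 5, week 10 and week 4, and neighbours after week 2 differed by at most 0.10, which is within the spread between animals. In bulk tissue, fewer cells of a type and less RNA per cell cannot be told apart.

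From week 2 to week 5 Maoa changed by -0.26 in batch 1 (SE 0.12, adjusted p = 0.203) and by -0.76 in batch 2 (SE 0.16, adjusted p = 0.00377). In that batch 2 comparison 9.81% of all probe sets were called. The change differed between the batches by -0.51 (SE 0.20, adjusted p = 0.235), which did not pass the test. Week 2 animal 5, at 7.38 the lowest of week 2, was counted in batch 1 here. These changes were not refitted with that animal in batch 2. On scan day 4, the only day that held weeks 2 and 10, the 1 animal of week 10 was at 7.41 and the 1 animal of week 2 at 7.64, a difference of -0.24. Week 10 against week 5 differed by -0.17 on day 1 and -0.23 on day 2, and week 5 against week 2 by -0.92 on day 7. On day 5 the 1 animal of week 5 lay 0.17 above the mean of the week 4 animals. A fit with a fixed term for scan day, which leaves out week 3, gave Maoa a change of -0.66 with an adjusted p of 0.0562.

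Markers of meninges and fibroblasts, of oligodendrocyte precursors and of endothelial cells moved in the same direction as Maoa. Of the 8 markers of meninges and fibroblasts 7 were tested, and 5 of these fell between week 2 and week 10, among them the collagen gene Col1a2 (a change of -1.76) and the growth factor gene Igf2 (-1.64). The mean of the 7 was 7.05 to 7.53 in the week 2 animals and 6.32 to 6.68 at week 10, while Aldh1a2 and Slc6a13 of this list averaged 4.94 and 4.76 over all arrays and Lum was below 4 on every array. Over the 23 arrays this list mean correlated with Maoa (r = 0.73, rho = 0.65, permutation p = 4e-05 and 0.00083, adjusted over 108 relations 0.00216 and 0.0157), and r was 0.78 without the 2 arrays farthest from the median and 0.66 within batch 1. Of the 7 tested markers of oligodendrocyte precursors 5 fell, with list means of 7.66 to 7.90 at week 2 and 6.81 to 7.12 at week 10. This list correlated with Maoa at r = 0.68 and rho = 0.65 (permutation p = 0.0003 and 0.00102, adjusted 0.00463 and 0.0157), and r was 0.63 without 2 arrays and 0.59 within batch 1. Of the 8 tested endothelial markers 5 fell, and their mean correlated with Maoa at r = 0.60 and rho = 0.53 (permutation p = 0.00236 and 0.0102, adjusted 0.0196 and 0.061), with r = 0.43 without 2 arrays and 0.65 within batch 1. Interneuron markers, of which 2 of 9 were higher and 0 lower at week 10, went the other way. Their mean correlated with Maoa at r = -0.65 and rho = -0.35 (permutation p = 0.00111 and 0.098, adjusted 0.015 and 0.294). There r was -0.29 without 2 arrays and -0.30 within batch 1. The permutations treat all arrays as exchangeable although they share ages, batches and scan days, so these p-values do not speak to a relation beyond shifts with age or scan day. The part of any of these cells in the fall of Maoa was not tested.

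Rgs4 encodes a regulator of G protein signalling that is abundant in cortical neurons. Probe set 1416286_at lay at 12.13 in the lowest week 2 animal, 12.31 at the median and 12.48 in the highest. It was at 12.38, 12.55, 12.28 and 12.26 at week 3, and at 12.22, 12.15, 12.12 and 12.17 at week 4. The week 5 animals were at 12.36, 12.25, 12.27, 12.38 and 12.17, and the week 10 animals at 11.92, 11.85, 11.92 and 12.17. Animals 1, 6 and 7 of week 10 were thus below every other animal of the series, and animal 8 lay among the week 2 and week 4 values.

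The second probe set, 1416287_at, ran from 11.13 through a median of 11.33 to 11.59 at week 2. At week 3 it was at 11.52, 11.42, 11.34 and 10.997, and at week 4 at 11.07, 10.79, 11.01 and 11.08. At week 5 it was at 11.21, 11.15, 11.45, 11.38 and 11.20, and at week 10 at 10.70, 11.01, 10.81 and 11.08. Here weeks 4 and 10 shared the low values, and neither week overlapped week 2 or week 5. Between weeks 10 and 2, 14.7% of all tested probe sets did not overlap. That share was not counted for the other pairs of weeks, so their separation cannot be called unusual.

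Between week 2 and week 10 probe set 1416286_at changed by -0.38 (SE 0.08, adjusted p = 0.00218) and 1416287_at by -0.41 (SE 0.11, adjusted p = 0.0175), which are 1.30-fold and 1.33-fold lower levels. The ages differed among themselves in both (F-test, adjusted p = 0.00332 and 0.0184). From week 5 to week 10 the changes were -0.38 (SE 0.08) and -0.37 (SE 0.12), with unadjusted p-values of 0.000229 and 0.00648. Neither passed after adjustment over all probe sets (0.205 and 0.696), in a comparison where 0.0311% of all probe sets were called. In this comparison 0 of the 9 probe sets were called by limma, with 2 at an unadjusted p under 0.05. Weeks 3, 2 and 5 had means within 0.08 of each other for 1416286_at, and week 10 was lowest.

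The third Rgs4 probe set, 1448285_at, was more variable and was not called. Its range was 9.10 to 9.97 at week 2, 8.498 to 9.19 at week 3, 7.35 to 9.23 at week 4, 8.70 to 9.67 at week 5 and 8.004 to 9.34 at week 10. Its fitted change from week 2 to week 10 was -0.69 (SE 0.32, adjusted p = 0.145). Over the 23 arrays it correlated with 1416287_at (r = 0.69, rho = 0.58) and less with 1416286_at (r = 0.36, rho = 0.33), while those 2 correlated at r = 0.73 and rho = 0.72. The permutation p-values of r, adjusted over the 5 pairs of probe sets of one gene, were 0.000533, 0.109 and 0.00045. They take no account of shared ages, batches and scan days.

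On each of the scan days that held week 10 and a younger age, every Rgs4 probe set was lower at week 10. For 1416286_at the differences were -0.44 against week 5 on day 1, -0.39 against week 5 on day 2 and -0.31 against week 2 on day 4. In the same fit with a term for scan day, the week 10 against week 2 changes were -0.30 (adjusted p = 0.0662) and -0.41 (adjusted p = 0.0561) for the 2 called probe sets. Without week 10 animal 1, 1416287_at missed the threshold with a change of -0.34 (adjusted p = 0.0686), and likewise without week 2 animal 6 with -0.33 (adjusted p = 0.0537).

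At week 4, where Rgs4 values were low, the actin 3 prime minus 5 prime difference was 2.25 to 2.28 in animals 1, 2 and 3. In animal 6 of that week it was 1.50, within the range of the other ages. The 3 Rgs4 probe sets of that animal were at 12.17, 11.08 and 9.23. From week 3 to week 4 the 3 probe sets changed by -0.20, -0.33 and -0.52, and none was called. With the actin difference as a covariate these changes were -0.20, -0.04 and 0.86 (adjusted p of 0.731, 0.98 and 0.578). In that fit 0 of all 16103 tested probe sets were called between weeks 3 and 4. The 9 tested neuronal markers averaged 11.26 to 11.80 at week 2, 10.69 to 11.32 at week 4 and 10.71 to 11.46 at week 10. Of these markers 2 were higher and 3 lower at week 10 than at week 2. Over the 23 arrays their mean correlated with 1416287_at at r = 0.69 and rho = 0.72 (permutation p = 0.00022 and 0.00012, adjusted 0.00396 and 0.00432), with r = 0.50 without the 2 farthest arrays and 0.67 within batch 1. With 1448285_at it correlated at r = 0.74 and rho = 0.65 (permutation p = 8e-05 and 0.001, adjusted 0.00288 and 0.0157), with r = 0.52 without those 2 arrays and 0.77 within batch 1. With 1416286_at the correlation was r = 0.30 and rho = 0.35 (permutation p = 0.169 and 0.106, adjusted 0.405 and 0.304). Oligodendrocyte precursor markers correlated with 1416286_at at r = 0.53 and rho = 0.47 (permutation p = 0.0083 and 0.0245, adjusted 0.0498 and 0.126). That r was 0.33 without 2 arrays and 0.67 within batch 1. Microglial markers, of which 2 of 9 were higher and 1 lower at week 10, correlated with 1416287_at at r = -0.60 and rho = -0.57 (permutation p = 0.00255 and 0.00539, adjusted 0.0197 and 0.0388), with r = -0.54 without 2 arrays and -0.53 within batch 1. As for Maoa, the permutations took no account of shared ages, batches and scan days. The parts of RNA integrity and of these cells in the Rgs4 values were not tested.

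**Figure D2:**
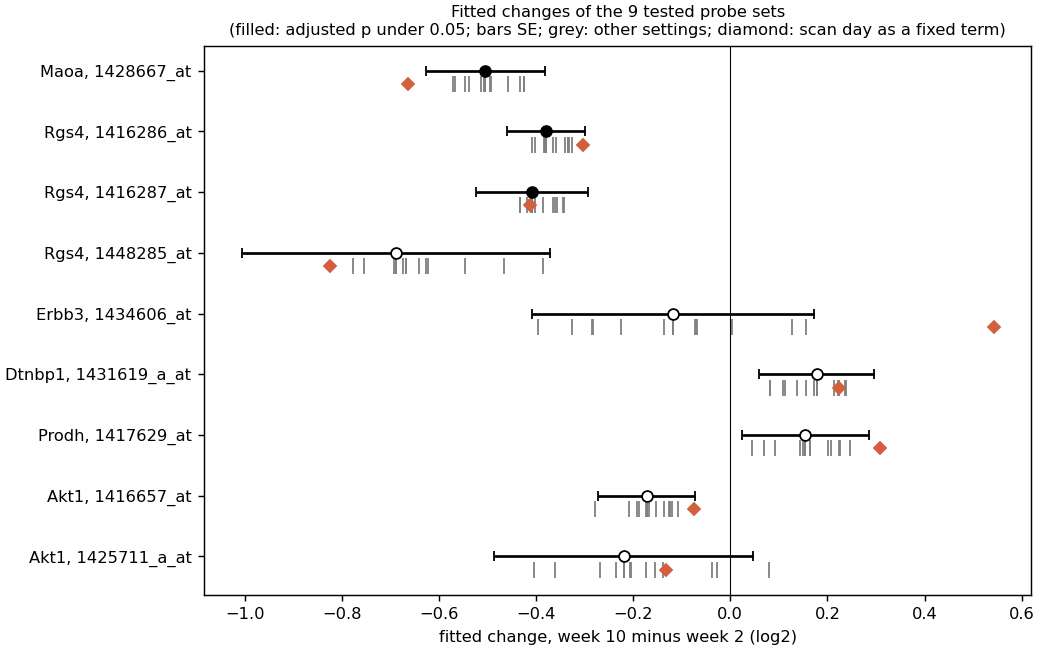
Fitted log2 change from week 2 to week 10 (horizontal axis) of the 9 tested probe sets, with the SE as bars and filled points where the adjusted p was under 0.05, where grey ticks give the same change under the other processing settings and orange diamonds those with a fixed term for scan day. The changes of Maoa, of the 3 Rgs4 probe sets and of Akt1 1416657_at stay below 0 under every setting shown. Those of Dtnbp1 and Prodh stay above 0, and those of Erbb3 and Akt1 1425711_a_at lie on both sides of 0.

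The sequence before the start of Maoa and Rgs4 is shown because these were the genes that fell. Both windows are from RefSeq (GRCm38.p6), which held a promoter for 6 of the 9 genes, and run from 250 bases before to 50 bases after the annotated start, 5′ to 3′ on the strand of the gene. That of Maoa is chrX:16619448-16619747, on the plus strand, and that of Rgs4 is chr1:169747593-169747892, on the minus strand. Capitals mark matches, on either strand, to 4 motifs. These are the TATA box, searched as TATAAA, the CAAT box, searched as CCAAT, the GC box, searched as GGGCGG, and the core of a cAMP response element, searched as TGACG.
Maoa: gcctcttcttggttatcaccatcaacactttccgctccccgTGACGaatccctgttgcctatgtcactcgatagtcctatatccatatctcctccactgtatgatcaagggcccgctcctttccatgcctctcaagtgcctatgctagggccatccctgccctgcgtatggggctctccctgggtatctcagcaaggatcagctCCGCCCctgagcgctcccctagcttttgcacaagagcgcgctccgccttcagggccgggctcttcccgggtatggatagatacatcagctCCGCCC
Rgs4: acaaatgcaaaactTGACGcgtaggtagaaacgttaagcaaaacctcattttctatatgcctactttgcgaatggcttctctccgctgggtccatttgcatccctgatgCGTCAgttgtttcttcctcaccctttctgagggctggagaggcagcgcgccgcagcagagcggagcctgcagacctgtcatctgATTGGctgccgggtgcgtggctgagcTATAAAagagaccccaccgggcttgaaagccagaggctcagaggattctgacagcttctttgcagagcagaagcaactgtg
With the start base counted as 0, the Maoa window held the cAMP core at -209 and 2 GC boxes read on the opposite strand, at -46 and 44. It held neither TATAAA nor CCAAT. The Rgs4 window held TATAAA at -31, CCAAT on the opposite strand at -57 and the cAMP core at -236 and, on the opposite strand, at -141. None of the matches overlapped another. Among all 32851 promoters, 13.6% held TATAAA, 37.4% CCAAT, 35.7% GGGCGG and 20.8% TGACG on either strand, so that the TATA box of Rgs4 is the least common of these matches. GC content was 57.7% in the Maoa window and 53% in that of Rgs4.

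Erbb3, the neuregulin receptor, did not differ between week 2 and week 10 by the test but moved strongly between animals. Its probe set 1434606_at lay at 5.65 in the lowest week 2 animal, 6.38 at the median and 7.10 in the highest. The week 3 animals were at 7.30, 6.97, 7.08 and 7.03, and the week 4 animals at 6.77, 7.27, 6.73 and 6.78. The week 5 animals were at 5.71, 6.93, 6.60, 5.84 and 6.42, and the week 10 animals at 6.76, 5.62, 6.50 and 6.20. Weeks 3 and 4 held no animal below 6.73, and weeks 2, 5 and 10 each spread over more than 1 unit. The other Erbb3 probe set, 1452482_at, reached log2 4 on 1 of 23 arrays (4.12 in week 10 animal 6, elsewhere 3.19 to 3.83) and was not tested.

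Erbb3 averaged 6.34 ± 0.58 (SD, n = 6) in week 2 animals and 7.09 ± 0.14 (SD, n = 4) in week 3 animals, and was lowest in week 10 animals with 6.27 ± 0.49 (SD, n = 4). The order of the means was week 3, week 4, week 2, week 5 and week 10, and no neighbours in that order were separated by their ranges. From week 2 to week 3 the fitted change was 0.71 (SE 0.29, adjusted p = 0.101), while 16.0% of all probe sets and 0 of the 9 here were called in that comparison by limma, with 2 of the 9 at an unadjusted p under 0.05. The count over all probe sets was 2570, and it was 112 when a random block for scan day replaced batch, 597 when it stood beside batch and 1158 with scan days 6 and 7 as 1 term. From week 2 to week 10 the fitted change of Erbb3 was -0.12 (SE 0.29, adjusted p = 0.817), and over 39 other settings it ran from -0.40 to 0.54.

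The fitted change of Erbb3 from week 2 to week 5 had opposite signs in the 2 batches, and only that of batch 2 was called. In batch 1 the week 2 animals lay between 6.29 and 7.10 and the week 5 animals between 5.71 and 6.42. Of the latter, animals 2 and 7 were at 5.71 and 5.84, with striatal marker means of 6.78 and 6.97. Animal 8 was at 6.42, with a striatal marker mean of 9.48. Low Erbb3 values also occurred with higher striatal means. The batch 2 animals of week 2, at 5.72 and 5.65, had striatal means of 9.69 and 8.54. Week 10 animal 6, at 5.62 the lowest of the series, had 9.97. The part of striatal tissue in these values was not tested. In batch 1 the week 2 arrays were scanned on days 3 and 4 and the week 5 arrays on days 1 and 2. The highest batch 1 animal of week 2, at 7.10, was animal 5, whose batch the labels give in 2 ways. The changes within batches and their difference were not refitted with animal 5 in batch 2. In batch 2 the week 2 animals were at 5.72 and 5.65 and the week 5 animals at 6.93 and 6.60. The change from week 2 to week 5 was therefore -0.67 in batch 1 (SE 0.23, adjusted p = 0.0732) and 1.08 in batch 2 (SE 0.30, adjusted p = 0.0266). The difference of 1.76 (SE 0.38) passed the test at an adjusted p of 0.0243, where 1.53% of all probe sets did and 1 of the 9 here. It missed the threshold when week 2 batch 2 animal 1 or 2, week 5 batch 2 animal 2, or week 5 batch 1 animal 2 or 7 was left out, with values from 1.59 to 1.79 and adjusted p-values from 0.0519 to 0.133.

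Markers of mature oligodendrocytes moved with Erbb3. The list holds 12 genes, of which 8 were measured and all 8 tested, with means over the arrays from 7.003 for Aspa to 14.79 for Mbp, so that none was near the floor. The mean of the 8 was 10.42 to 10.94 in batch 1 and 9.74 to 9.76 in batch 2 at week 2. At week 5 it was 10.17 to 10.85 in batch 1 and 10.91 to 11.27 in batch 2. At weeks 3, 4 and 10 it was 11.10 to 11.26, 10.74 to 11.36 and 10.42 to 10.62. Between weeks 2 and 10 Aspa rose by 1.56 and the other 7 were not called.

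Over the 23 arrays Erbb3 and the mean of these markers correlated at r = 0.85 and rho = 0.80. The permutations again took no account of shared ages, batches and scan days. Both p-values were 1e-05, the smallest that the permutations can give, and 0.00108 after adjustment over the 108 relations of 9 probe sets and 12 marker lists. Without the 2 arrays farthest from the median r was 0.79, and within batch 1 it was also 0.79 (n = 19). Astrocyte markers correlated with Erbb3 at r = 0.71 (rho = 0.70) and striatal markers at r = 0.61 (rho = 0.58). The 4 tested markers of monoamine cell bodies did so at r = 0.56 and rho = 0.59 (permutation p adjusted 0.0426 and 0.0333). For the 2 tested blood markers r was 0.51 and rho 0.57 (permutation p adjusted 0.0649 and 0.0356). The part of these cells in the Erbb3 values was not tested.

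**Figure D3:**
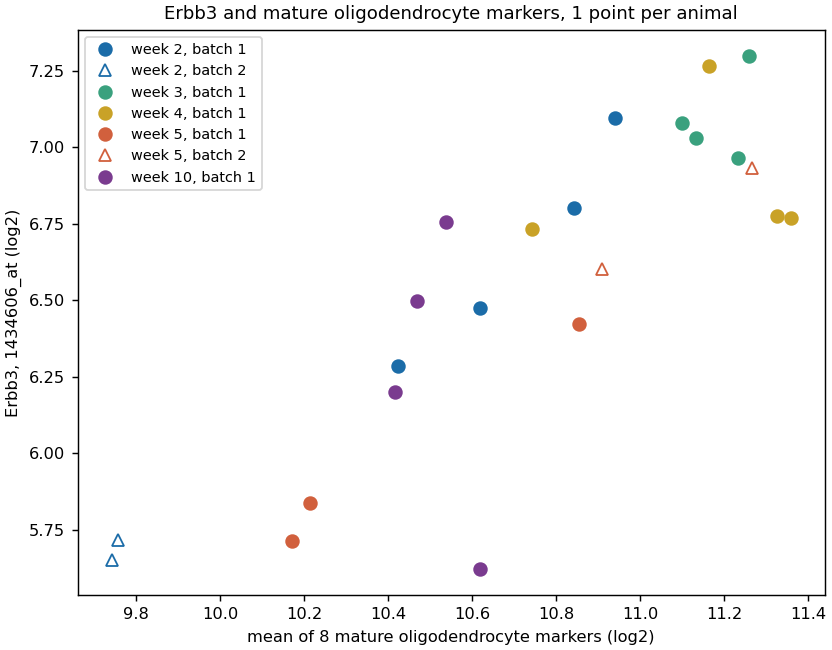
Erbb3 (probe set 1434606_at, vertical axis, log2) against the mean of 8 markers of mature oligodendrocytes (horizontal axis, log2), 1 point per animal, coloured by age, with batch 1 filled and batch 2 open. The 2 batch 2 animals of week 2 lie at the lower left, with Erbb3 at 5.72 and 5.65, and the 2 batch 2 animals of week 5 lie in the upper right with weeks 3 and 4.

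The 3 genes whose pattern over the arrays was most like that of Erbb3, among 9195 genes, were Fa2h (r = 0.88), Mog (r = 0.85) and Cldn11 (r = 0.84). Fa2h makes the hydroxylated fatty acids of myelin lipids, Mog is a myelin surface protein and Cldn11 a tight junction protein of myelin. Mog and Cldn11 are also members of the marker list above. For Maoa they were Prep (r = 0.88), a peptidase that cuts after proline, Serp1 (r = 0.86), a protein of the endoplasmic reticulum, and Mycn (r = 0.85), a transcription factor of growing cells. Rgs4 was most like Strn4 (r = 0.81), Cbx6 (r = 0.75) and Ube2g1 (r = 0.73). Each r is the highest of many over arrays that share ages and scan days, and is given as a description.

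Dtnbp1 encodes dysbindin, a subunit of the BLOC-1 complex that sorts cargo to lysosome-related organelles and synaptic vesicles. Its probe set 1431619_a_at ranged from 8.54 to 9.09 at week 2, 8.66 to 9.005 at week 3, 8.78 to 9.03 at week 4, 8.81 to 9.18 at week 5 and 8.82 to 9.35 at week 10. All ages overlapped. The fitted change from week 2 to week 10 was 0.18 (SE 0.12, adjusted p = 0.328), and the ages did not differ by the F-test (adjusted p = 0.372). Its pattern was most like that of Ldhb, Cnot8 and Pdcd6 (r = 0.87, 0.86 and 0.85). Neuronal markers correlated with Dtnbp1 at r = -0.63 and rho = -0.62 (permutation p adjusted over 108 relations 0.01665 and 0.0263). Microglial markers did so at r = 0.61 and rho = 0.55 (adjusted 0.01665 and 0.0476). Within batch 1 these r were -0.59 and 0.56. Here too the permutations took no account of shared ages, batches and scan days. The part of these cells in the Dtnbp1 values was not tested.

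Prodh encodes proline dehydrogenase, the mitochondrial enzyme of the first step of proline breakdown. Its probe set 1417629_at lay at 6.60 in the lowest week 2 animal, 7.23 at the median and 7.30 in the highest, and the lowest 2 values, 6.60 and 6.95, were those of batch 2. It was at 6.91, 7.19, 7.10 and 7.33 at week 3, and at 7.65, 7.52, 7.35 and 7.26 at week 4. At week 5 it was at 7.34, 7.72, 7.28, 7.28 and 7.26, and at week 10 at 7.26, 7.27, 7.40 and 7.30. Apart from the batch 2 animals the values of weeks 2, 5 and 10 nearly coincided.

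Prodh was not called over all arrays between week 2 and week 10 or between neighbouring ages. From week 2 to week 10 it changed by 0.15 (SE 0.13, adjusted p = 0.45). From week 3 to week 4 the change was 0.31 (SE 0.14, adjusted p = 0.153), in a comparison where 11.4% of all probe sets and 0 of the 9 here were called by limma, with 3 of the 9 at an unadjusted p under 0.05. With the actin difference as a covariate that change was -0.08 (adjusted p = 0.959). Of all probe sets, 1839 were called in that comparison, but 1 when a random block for scan day replaced batch, 191 when it stood beside batch, 2 with scan days 6 and 7 as 1 term and 0 with the actin covariate. From week 2 to week 5 it was 0.03 in batch 1 (SE 0.12, adjusted p = 0.897) and 0.72 in batch 2 (SE 0.15, adjusted p = 0.00409), and the difference between the batches of 0.69 (SE 0.19) had an adjusted p of 0.0763. Without week 5 batch 2 animal 4 that difference was 0.91 and passed (adjusted p = 0.0112). These values within batches were not refitted with week 2 animal 5 in batch 2. The genes most like Prodh were Mapk8ip3, Dpp7 and Etnk1 (r = 0.84, 0.83 and 0.83). Neuronal markers correlated with Prodh at r = -0.62 and rho = -0.64 (permutation p adjusted over 108 relations 0.01665 and 0.019). The 2 tested choroid plexus markers did so at r = -0.59 and rho = -0.59 (adjusted 0.0498 and 0.0333). Within batch 1 these r were -0.59 and -0.70. Here too the permutations took no account of shared ages, batches and scan days. The part of these cells in the Prodh values was not tested.

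Akt1 encodes a kinase that PI3K activates downstream of ErbB and many other receptors. Its probe set 1416657_at ranged from 9.49 to 9.98 at week 2, 9.52 to 9.73 at week 3 and 9.43 to 9.78 at week 4. At week 5 it was at 9.09, 9.70, 9.71, 9.49 and 9.35, and at week 10 at 9.14, 9.41, 9.58 and 9.41. The probe set 1425711_a_at was at 7.09, 8.27, 8.77, 8.34 and 8.31 at week 5 and at 6.91, 8.45, 8.32 and 8.27 at week 10, and between 7.99 and 8.93 at weeks 2 to 4. In both probe sets the lowest 2 values of the series were those of week 5 batch 1 animal 2 and week 10 animal 1, the 2 arrays of scan day 1 and chip lot 1, which also had the highest Gapdh differences between 3 prime and 5 prime (0.48 and 0.75). Their actin differences, 1.69 and 1.78, were below those of week 4 animals 1 to 3 (2.25 to 2.28). Neuronal markers correlated with 1425711_a_at at r = 0.74 and rho = 0.73 (permutation p adjusted over 108 relations 0.00324 and 0.00432). There r was 0.69 without the 2 farthest arrays and 0.70 within batch 1. With 1416657_at they correlated at r = 0.41 and rho = 0.23 (adjusted 0.177 and 0.541). Oligodendrocyte precursor markers correlated with 1416657_at at r = 0.55 and rho = 0.54 (permutation p adjusted 0.0413 and 0.05635). Microglial markers correlated with 1425711_a_at at r = -0.52 and rho = -0.59 (permutation p adjusted 0.0509 and 0.0333). Shared ages, batches and scan days were not taken into account by these permutations. The parts of RNA integrity and of these cells in the Akt1 values were not tested.

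Neither Akt1 probe set was called in any comparison of ages. From week 2 to week 10 they changed by -0.17 (SE 0.10, adjusted p = 0.256) and -0.22 (SE 0.27, adjusted p = 0.617), and without the arrays of scan day 1 by -0.11 and 0.08. The 2 arrays of chip lot 1 lay at 9.09 to 9.14 and at 6.91 to 7.09, and the other 21 at 9.35 to 9.98 and at 7.99 to 8.93. Over all tested probe sets the 2 lots did not overlap in 1019, or 6.33%, and of the 9 probe sets here in the 2 of Akt1. The correlation of both Akt1 probe sets was r = 0.73 with rho = 0.31 (permutation p adjusted over 5 pairs 0.000533 and 0.184). From week 4 to week 5, where 0.0745% of all probe sets were called, 1416657_at changed by -0.27 (SE 0.11, adjusted p = 0.271), and 0 of the 9 were called by limma with 3 at an unadjusted p under 0.05. The genes most like Akt1 were Clstn3, Ogdh and Eef2 (r = 0.87 each).

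**Figure D4:**
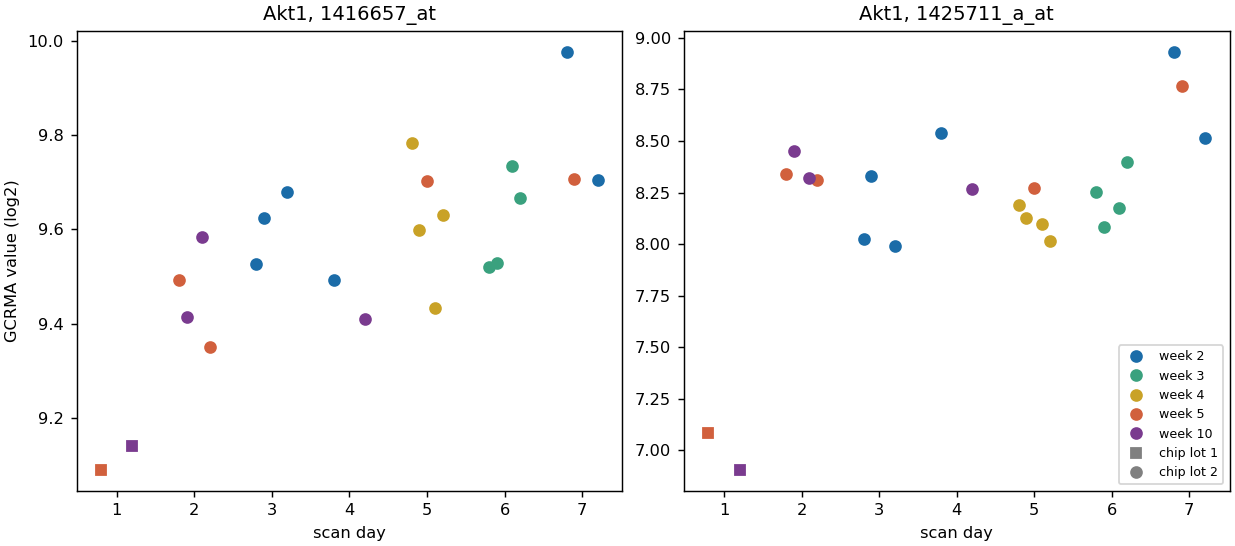
Log2 values of both Akt1 probe sets (vertical axes) by scan day (horizontal axis), 1 point per animal, coloured by age, with squares for chip lot 1 and circles for chip lot 2. The 2 squares on scan day 1, 1 animal of week 5 and 1 of week 10, lie below all other animals in both panels.

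Lists of genes from the same pathways were read by counts, each gene by its probe set with the highest mean. In week 10 against week 2, 7.12% of the 9196 genes tested in this way were called higher and 11.4% lower, and their median change was 0.01. In the neuregulin and ErbB list 20 genes were tested, of which 1 was higher and 3 lower, with a median change of -0.05. Adam19 and Adam17, metalloproteases that shed membrane-bound growth factors, were lower, with changes of -1.02 and -0.51 (adjusted p = 0.000458 and 0.013). With a term for scan day Adam17 changed by -0.23 (adjusted p = 0.37). Erbin, a scaffold that binds ErbB2, rose from 8.45 ± 0.17 (SD, n = 6) to 9.20 ± 0.20 (SD, n = 4), with a change of 0.73 (adjusted p = 0.0031). Bace1, the beta-secretase that also cleaves neuregulin, fell by 0.39 (adjusted p = 0.0306), and missed the threshold without week 2 animal 3 or 4 or week 10 animal 6 or 8 (adjusted p from 0.056 to 0.0886). Erbb2 itself was below log2 4 on all arrays and Erbb4 changed by 0.24 (adjusted p = 0.247).

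Of the 5 tested aldehyde dehydrogenase genes in the list of monoamine and aldehyde breakdown, Aldh9a1 and Aldh2 rose, and Aldh1a1 (-0.02), Aldh3a2 (0.07) and Aldh7a1 (0.16) were not called. In this list 10 genes were tested, 2 higher and 1 lower, with a median of -0.01, and the lower gene was Maoa. Aldh9a1, which oxidises aminobutyraldehyde, rose from 8.81 ± 0.11 (SD, n = 6) to 9.54 ± 0.25 (SD, n = 4), a fitted change of 0.70 (adjusted p = 7.59e-05). Aldh2, the mitochondrial aldehyde dehydrogenase, rose by 0.51 (adjusted p = 0.000881), and in the fit with a term for scan day its change was 0.42 (adjusted p = 0.0893). In the list of monoamine synthesis, transport and receptors 18 genes were tested, 1 higher and 1 lower, with a median of 0.01. Qdpr, which regenerates the tetrahydrobiopterin cofactor of monoamine synthesis, rose by 1.27 (adjusted p = 3.74e-08), and Slc29a4, a low-affinity monoamine transporter, changed by -0.70 (adjusted p = 0.00241). The serotonin transporter Slc6a4 stayed below log2 4 on every array.

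In the RGS family 15 genes were tested and 3 were lower, Rgs4 among them, with 0 higher and a median of -0.02. Rgs5, known as a marker of pericytes, changed by -0.71 (adjusted p = 8.32e-05) and Rgs19 by -0.58 (adjusted p = 0.000226). Beside Rgs5, 5 of the 8 tested endothelial markers fell, with list means of 6.98 to 7.31 at week 2 and 6.63 to 6.81 at week 10, and the part of vessels in the Rgs5 change was not tested. Of the 4 tested genes for metabotropic glutamate receptors and Homer proteins 0 were called by limma, with a median of -0.24. Homer1 and Homer2, scaffolds of these receptors, changed by -0.22 and -0.42 (adjusted p = 0.573 and 0.257).

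In the PI3K and AKT list 21 genes were tested, 1 higher and 1 lower, with a median of -0.07. Pdpk1, the kinase that phosphorylates AKT, rose by 0.41 (adjusted p = 0.0126), and Pik3r2, a regulatory subunit of PI3K, fell by 0.37 (adjusted p = 0.031). Neither was called without the arrays of scan day 1, with changes of 0.36 (adjusted p = 0.0518) and -0.22 (adjusted p = 0.138), and Pik3r2 also missed the threshold without week 10 animal 1 alone (-0.22, adjusted p = 0.131) or week 2 animal 6 (-0.33, adjusted p = 0.0743). Among dysbindin partners 17 genes were tested, 1 higher and 2 lower, with a median of 0.04. Bloc1s5, a subunit of BLOC-1, rose by 0.66 (adjusted p = 0.0222), another subunit, Bloc1s6, fell by 0.27 (adjusted p = 0.0175), and the AP-3 adaptor subunit Ap3s2 fell by 0.36 (adjusted p = 0.0244). Bloc1s5 was not called without week 10 animal 1 (0.51, adjusted p = 0.0913), nor Bloc1s6 without week 10 animal 7 (-0.23, adjusted p = 0.0567). Ap3s2 was not called without any one of week 2 animals 4 and 6 and week 10 animals 1 and 7, with adjusted p-values from 0.0527 to 0.073.

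In the proline metabolism list 7 genes were tested, 0 higher and 1 lower, with a median of 0.06. The lower gene was Aldh18a1, which makes the precursor of proline and so works opposite to Prodh, and it fell by 0.75 (adjusted p = 0.00012). Among genes of the 22q11 interval, the human deletion region that holds PRODH, 25 were tested, 2 higher and 4 lower, with a median of -0.07. Gp1bb, known as a platelet glycoprotein, changed by -1.22 (adjusted p = 1.68e-07) and Cldn5, a tight junction protein of endothelium, by -0.78 (adjusted p = 0.000937). The catenin Arvcf changed by -0.59 (adjusted p = 0.0113) and the adhesion protein Dgcr2 by -0.47 (adjusted p = 0.00215), and in the fit with a term for scan day they changed by -0.52 and -0.42 and missed the threshold (adjusted p = 0.259 and 0.132). The 2 higher genes were Ufd1 and Lztr1, with changes of 0.43 and 0.33. In each list the shares of higher and lower genes can be set against 7.12% and 11.4%, and with this few genes they do not set a list apart.

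**Figure D5:**
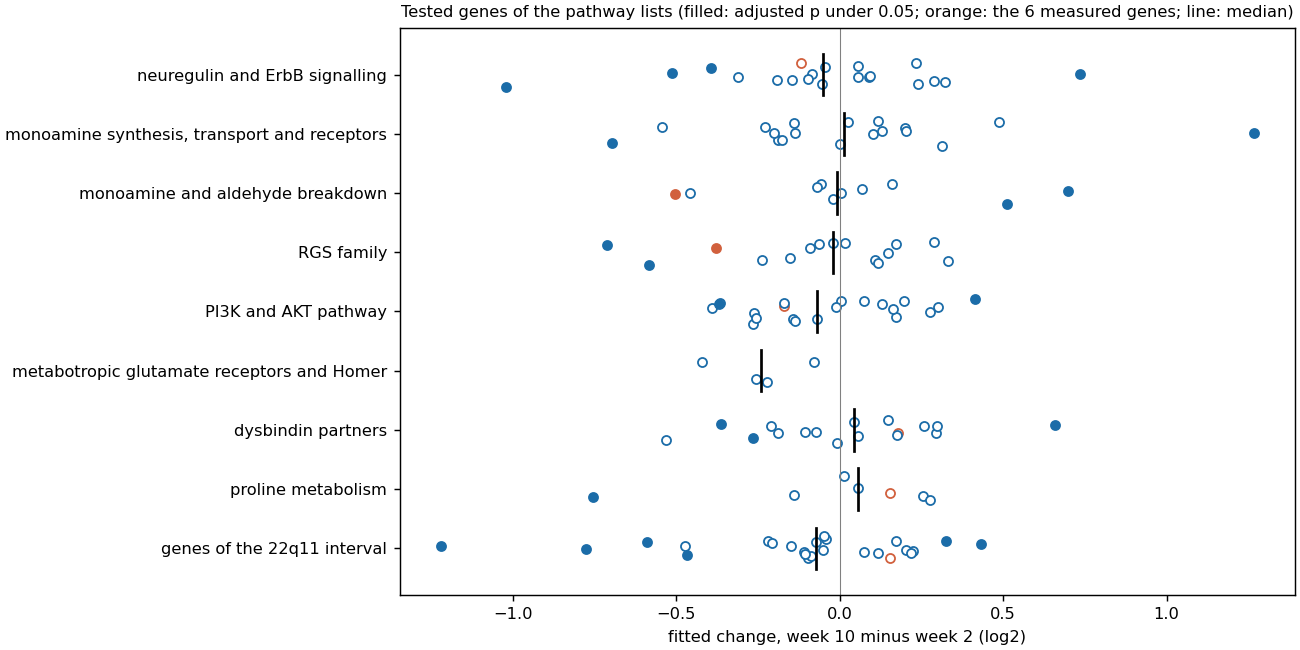
Fitted log2 change from week 2 to week 10 (horizontal axis) of every tested gene in 9 pathway lists, filled where the adjusted p was under 0.05, with the measured genes described above in orange and a black line at each median. In most lists the points lie on both sides of 0, and the medians run from -0.24 to 0.06.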

How the data were processed

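RNA of 23 animals was hybridised to Affymetrix MOE430A arrays. The values are log2 levels per probe set in the authors' deposited table, made with GCRMA per the submitters' processing notes (version not given in the sources used here), and were used as deposited. GCRMA normalises between arrays, so changes are relative to the whole array. Scan day and chip lot came from the scanner records. Precision is set by the number of arrays.

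The members and gene lists were chosen with earlier results of these data known. Symbols came from the platform annotation, updated through gene identifiers with RefSeq GRCm38. Probe sets that reached log2 4 in 4 or more animals were tested (16103). limma 3.58.1 in R 4.3.3 fitted a mean per age with batch as a term (two-sided tests), with Benjamini-Hochberg adjustment over all tested probe sets, and the code was tested on simulated data. Week 5 against week 2 was also fitted within batches, but not with week 2 animal 5 in batch 2. SE is the standard error of a fitted change and SD the spread between animals. All probe sets of the listed genes are described. From each pathway list up to 4 called genes with the largest change are named, or, in a list with no call, the 2 of highest mean level, and the 3 genes of highest Pearson correlation with each measured gene. Erbb2, Erbb4, Slc6a4, Ufd1, Lztr1 and the marker genes were named after their values were seen. Correlations with 12 marker lists and between probe sets of one gene were tested with 100000 permutations. All of these treat the arrays as exchangeable although they share ages, batches and scan days. Their p-values do not speak to a relation beyond shifts with age or scan day. The planned permutation tests of Maob minus Maoa and Erbb3 minus Nrg1 were not run, since Maob and Nrg1 had no probe set. Alternatives covered batch, scan day, chip lot, normalisation, filter, limma settings, RNA integrity, animal number as a replicate block and each array left out. Each array was an independent animal by the series design, so animal numbers were not taken as pairs. Of 25 pairs of arrays with one number at different ages, 10 had deviations correlated above 0.1, with a median of -0.04. The median was 0.03 over 185 pairs of other numbers and 0.12 over 12 pairs scanned on one day. These correlations alone cannot settle pairing, since pairs of one scan day were also correlated.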

Additional observations from a re-analysis of the deposited data

Results flagged for a closer look

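Within an age, 5 of 50 groups of a probe set and an age held an animal far from the others by Dixon's test, which chance gives in about 1 of 20 groups. Erbb3 (1434606_at) was at 7.27 in week 4 animal 2 and at 6.73 to 6.78 in the other 3. The low Erbb3 probe set 1452482_at was at 3.19 in week 2 animal 4, against 3.41 to 3.52, and at 4.12 in week 10 animal 6, against 3.48 to 3.50. Prodh was at 7.72 in week 5 batch 2 animal 2 and at 7.26 to 7.34 in the other 4. Akt1 (1425711_a_at) was at 6.91 in week 10 animal 1 and at 8.27 to 8.45 in the other 3, and this array is 1 of the 2 of chip lot 1.

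The change of Erbb3 from week 2 to week 5 differed between the batches by 1.76 on the log2 scale in a test of the difference itself, with -0.67 in batch 1 and 1.08 in batch 2. This took week 2 animal 5 as batch 1, and the other reading of its labels was not fitted for this difference.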

How the results depend on the processing

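The count of 3 called probe sets in week 10 against week 2 fell to 0 in the fit with a term for scan day, which left out week 3. No other setting moved it by over 1.5 times. It was 3 with the animal number as a replicate block, and that block moved none of the other counts by over 1.5 times. In week 3 against week 2 the count of 0 became 1 without a batch term, with week 2 animal 5 in batch 2, with scan days 6 and 7 as 1 term and with array weights, and 2 with the actin covariate. In week 4 against week 3 it became 1 in batch 1 alone and 2 with array weights, and in week 5 against week 4 it became 1 with array weights. The F-test count of 3 became 5 with arrays centred on their medians and with array weights. Leaving out 1 array at a time gave 2 to 3 calls in week 10 against week 2, 0 to 2 in week 3 against week 2 (2 without week 2 animal 5), 0 to 1 in week 4 against week 3 (1 without week 3 animal 6), 0 to 1 in week 5 against week 4 (1 without week 4 animal 6), 0 in week 10 against week 5 and 3 to 5 by the F-test (5 without week 4 animal 6). The 1 call of a difference between batches became 0 to 2. Over all probe sets, 2748 calls in week 10 against week 2 became 1523 in the fit with a term for scan day, and the counts of week 3 against week 2 and week 4 against week 3 fell as given above. The cause of these moves was not tested. No called change turned its sign. For the named pathway genes the settings were chosen after seeing the data. Of 39 settings, Bace1 was called in 30, Ap3s2 in 29, Pik3r2 in 32, and Bloc1s5 and Bloc1s6 in 34 each. Adam17, Aldh2, Pdpk1, Dgcr2 and Arvcf were called in 38 each. All of these genes but Pdpk1 missed in the fit with a term for scan day. Bace1 and Ap3s2 also missed with arrays centred on their medians and with a second quantile normalisation. Bloc1s6 missed with the former of these and Pik3r2 with the latter. The 2 planned contrasts with Maob and Nrg1 were not run. With 4 to 6 animals an age, and week 3 alone on its scan day, small changes and those of weeks 3 and 4 cannot be told apart from scan day. Weeks 2 and 10 shared only scan day 4, with 1 animal each. The 3 calls of Maoa and Rgs4 were lost with a term for scan day, so those falls cannot be fully told apart from it either.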
